A study of Mus musculus with 8 samples.

Results

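The 38 genes described here encode the proteins that license and fire DNA replication origins and that copy DNA at the fork. They were listed by name, by subcomplex, and 37 of the 38 were measured among 17098 genes. A gene counted as measured when at least 1 probe set of the array was annotated to it alone, and the brightest such probe set, by its average on the 8 arrays, stood for it. Orc3 could not be read this way, because the 5 probe sets that name it also name another gene.

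The cisplatin group was 4 samples of mouse embryonic stem (ES) cells taken 8 h after 2.5 µM cisplatin, a platinum drug that crosslinks DNA. The control group was 4 samples taken 8 h after an equal volume of the solvent DMSO. All 8 samples share the labels HPRT deficient and C57BL/6 and passages 19 to 22, and all cells had been grown on feeder cells and then on gelatin. Each sample was hybridised to 1 array, read mainly near the 3′ end of polyadenylated RNA, and replicates are numbered 3 to 6 in both groups. Whether each replicate was its own culture is not given, and p-values therefore speak only of the scatter among these 8 samples, part of which may be technical. These are bulk samples, so fewer cells in a cell cycle phase and less RNA per cell cannot be told apart.

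In background terms, origins are marked by the origin recognition complex (ORC), and Cdc6 and Cdt1 load the ring-shaped MCM helicase there before S phase. Cdc45 and the GINS complex join the MCM ring to form the active helicase, polymerase alpha with its primase lays down primers, and polymerases epsilon and delta extend them on the PCNA clamp that replication factor C (RFC) loads. Many of these genes are targets of E2F transcription factors at the start of S phase, and ES cells, which spend much of their cycle in S phase, express them strongly.

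Promoter sequence is shown first, since E2F sites are the best known control of this gene family. The 250 bases before the start site were taken from RefSeq promoter windows (GRCm38.p6), which held 30 of the 38 genes. They were searched on both strands for the E2F-type octamers TTTCCCGC, TTTCGCGC, TTTGCCGC and TTTGGCGC, where matches may overlap. At least 1 octamer was found in 9 of the 30 genes (30%), against 2.16% of the 27025 genes with a window. Those 27025 genes were not limited to genes measured here or to genes as bright as the members. A match is a description of the letters and does not show binding. Only exact octamers were counted, so a window without one, such as that of Prim1, may still hold a near match. The 150 bases before the start site are printed for 3 genes that passed the expression test and hold an octamer (Gins3, Rfc3 and Pola1), for Prim1, which passed it without one, and for Mcm6, the member with the most octamers, which did not pass it. Capitals mark the octamers, and the bases run 5′ to 3′ on the strand of the gene.
Gins3, plus strand, chr8:95633409-95633558: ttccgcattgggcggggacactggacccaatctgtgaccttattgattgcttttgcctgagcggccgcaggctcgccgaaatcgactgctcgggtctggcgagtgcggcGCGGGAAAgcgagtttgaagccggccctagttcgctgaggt
Rfc3, minus strand, chr5:151651209-151651358: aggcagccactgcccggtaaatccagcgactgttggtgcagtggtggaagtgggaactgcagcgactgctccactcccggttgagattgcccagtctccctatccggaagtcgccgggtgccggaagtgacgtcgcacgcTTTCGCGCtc
Pola1, minus strand, chrX:93632156-93632305: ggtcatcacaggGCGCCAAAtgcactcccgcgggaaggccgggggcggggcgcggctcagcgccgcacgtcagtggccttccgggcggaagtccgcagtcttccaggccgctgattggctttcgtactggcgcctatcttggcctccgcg
Prim1, plus strand, chr10:128015065-128015214: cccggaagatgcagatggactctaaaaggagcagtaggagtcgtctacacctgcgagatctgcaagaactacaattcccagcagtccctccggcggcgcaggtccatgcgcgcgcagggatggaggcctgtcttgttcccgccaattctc
Mcm6, minus strand, chr1:128359706-128359855: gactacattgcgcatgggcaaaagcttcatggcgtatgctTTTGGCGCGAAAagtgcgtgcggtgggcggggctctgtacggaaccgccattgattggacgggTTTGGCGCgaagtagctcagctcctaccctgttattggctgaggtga

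Counted from the base just before the start site as -1, the octamer begins at -41 in Gins3, at -10 in Rfc3 and at -138 in Pola1, and in Mcm6 at -110, -106 and -47, the first 2 overlapping. Octamers were found for Mcm5, Mcm6, Mcm7, Orc1, Orc3, Cdc6, Gins3, Pola1 and Rfc3. Of the 8 measured genes with an octamer, 2 were higher and 1 was lower with cisplatin, and of the 21 measured genes with a window but no octamer, 2 were higher. The median log2 changes of these 2 classes were 0.04 and 0.0028. Over all genes 19.3% passed in either direction, and 27.9% of genes at least as bright as the dimmest member. Rfc2 and Prim2, which also passed, have no window and are in neither class. The classes are small, and their difference was not tested.

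The treatment and the cells were checked first. Cdkn1a, the p53-induced cell cycle inhibitor p21, was at 8.63 ± 0.23 on the log2 scale with cisplatin and at 7.41 ± 0.15 in the controls (mean ± SD, n = 4 each), and Mdm2, the p53 ubiquitin ligase, at 9.76 ± 0.15 and 8.28 ± 0.24. Hprt, the gene that the cells are labelled as lacking, was at 4.84 ± 0.16 with cisplatin and 4.60 ± 0.37 in the controls on its 1 probe set, whose position relative to the lesion is not known here. All 7 measured ES cell markers lay at 9.14 or higher in both groups. Their mean was lower with cisplatin (11.36 ± 0.03, against 11.61 ± 0.02 in the controls), and 4 of the 7 (Esrrb, Fbxo15, Zfp42 and Nanog) fell. Of 10 fibroblast markers, which would show leftover feeder cells, 6 were below the 3.10 of background probes in both groups, and Mmp2 and Thy1 were higher with cisplatin. The list mean ranged from 3.26 to 3.57 with cisplatin and from 3.25 to 3.42 in the controls. Of 6 markers of differentiated layers, whose list mean was 3.65 to 3.70 with cisplatin and 3.76 to 3.94 in the controls, Pax6 fell. The part of these marker lists in the results below was not tested.

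Of the 37 measured members 7 passed the test, a share of 18.9% where 19.3% of all genes passed. With cisplatin, Gins3, Prim1, Rfc3, Fen1 and Rfc2 were higher, by 0.17 to 0.50 on the log2 scale, and Pola1 and Prim2 were lower, by 0.44 and 0.27. For the other 30 measured members no difference passed the test, and every one of their 95% intervals lay within 0.32 of 0 on the log2 scale. Gins3 and Pola1 kept their calls under all alternatives that included them, and the other 5 did not. Within polymerase alpha-primase 1 gene rose (Prim1) and 2 fell (Pola1 and Prim2), the 2 that fell being the 2 longest genes of the whole set.

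The 7 members past an adjusted p of 0.05 (limma, Benjamini-Hochberg over all 17098 genes) are 18.9% of the 37. Over all genes 19.3% passed, 11.6% higher and 7.69% lower, so the share of members called was close to that over all genes. Members are bright, the dimmest group mean being 6.41, and of the 5961 genes at least that bright in both groups 27.9% passed. The groups did not overlap for 12 of the 37 members, among them all 7 called. That is 32.4% of the members, where 24.3% of all genes and 39.7% of the genes at least as bright showed this. The median log2 change was 0.0036 over the members and 0.01 over all genes, and the median size of the change was 0.07 for the members against 0.10 for all genes. The arrays differed little within a group, with a median SD of 0.05 for the members in either group and of 0.10 over all genes. Averaged over the 37 members, the arrays read 9.71, 9.70, 9.69 and 9.71 with cisplatin and 9.67, 9.69, 9.66 and 9.69 in the controls, a log2 difference of 0.02, with overlapping groups.

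One choice of scale matters for every count here. On the deposited scale the array medians over all probe sets were 3.35 to 3.38 with cisplatin and 3.36 to 3.37 in the controls. The medians of the tested genes alone differed by 0.13 between the groups, although the median change of these genes was 0.01. Setting the median of the tested genes to the same value on every array (centring) lowered all changes by 0.13 (the median over all genes to -0.12 and over members to -0.13). After centring, 1 member was higher, Gins3, and 11 were lower. These were Pola1, Prim2 and 9 members with no call on the deposited scale, namely Mcm3, Mcm6, Orc2, Orc4, Orc5, Gmnn, Cdc45, Pold3 and Rfc1. Over all genes 1087 were higher and 3925 lower, so that 21.7% of calls were higher where the deposited scale gave 60.2%. Directions of members that changed by less than 0.13 upward turn negative on the centred scale. Quantile normalization again, in place of centring, left 5 members higher and 2 lower, and 47.9% of calls over all genes were then higher.

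**Figure D1:**
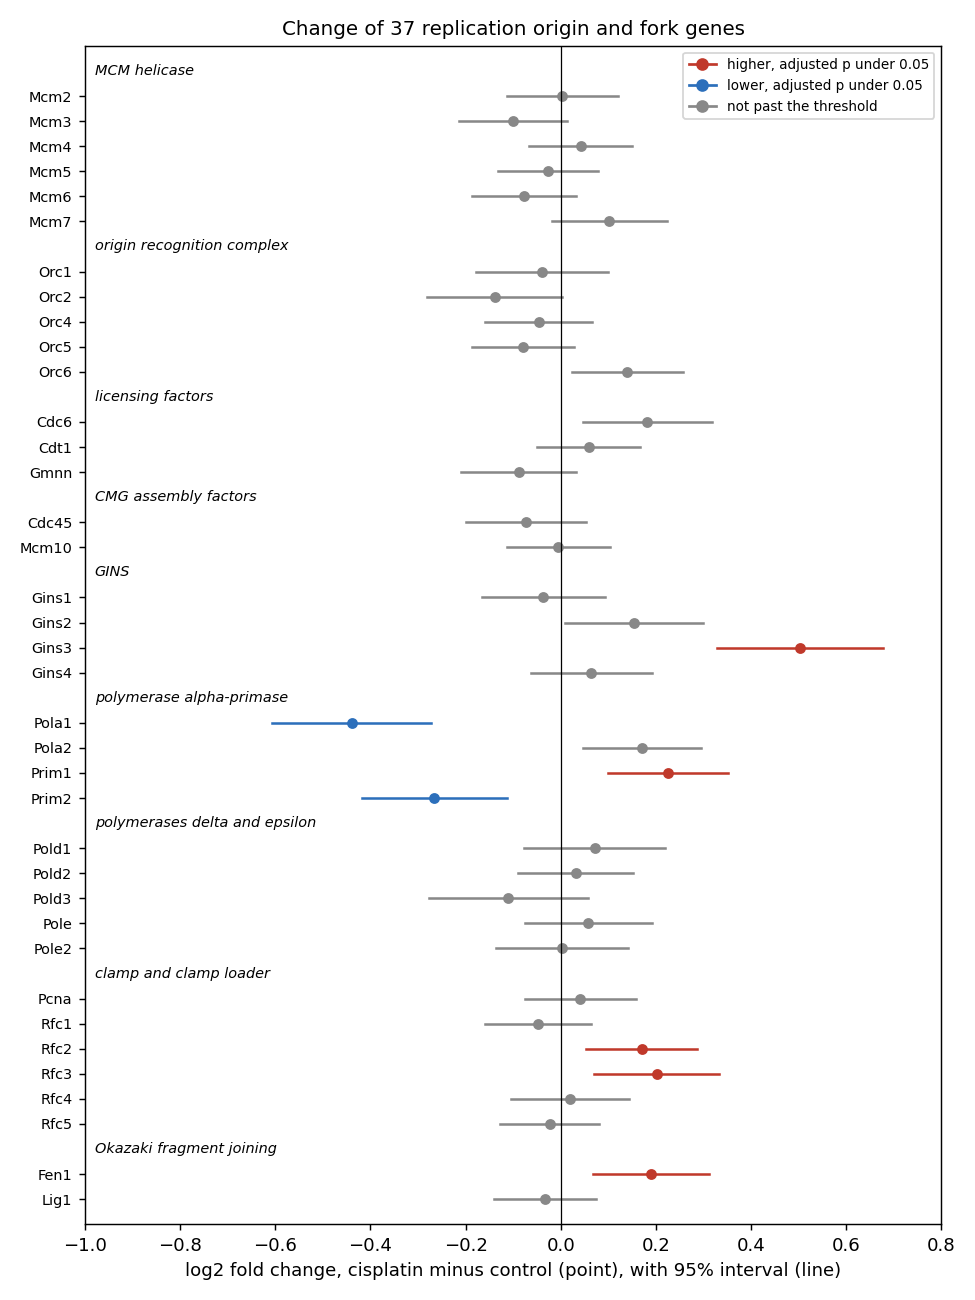
Log2 fold change of the 37 measured genes (cisplatin minus control, 4 arrays each), grouped by subcomplex, with 95% intervals from limma. Red and blue mark genes higher and lower at an adjusted p under 0.05; Gins3 at 0.50 and Pola1 at -0.44 lie farthest from 0, and all 6 MCM genes have intervals that include 0.

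Origin recognition and licensing genes come first in the order of replication. None of the 5 ORC genes measured passed the test (limma, 1 at an unadjusted p under 0.05), and their median log2 change was -0.05. Orc6, the smallest subunit, had the lowest p of the complex. Its log2 values were 9.43, 9.38, 9.39 and 9.36 on the cisplatin arrays and 9.24, 9.21, 9.20 and 9.34 on the control arrays. The groups did not overlap, and the change of 0.14 ± 0.05 (log2 fold change ± SE, 4 arrays against 4) had an adjusted p of 0.0931. It passed without control replicate 6, the highest control (adjusted p = 0.0468). Orc2, a core subunit, was at -0.14 ± 0.06 (adjusted p = 0.168), and Orc1, Orc4 and Orc5 lay between -0.08 and -0.04, each with an interval that includes 0. All 3 probe sets of Orc2 gave negative log2 changes, from -0.14 to -0.08. A dim probe set of Orc4, at 4.30 on average, did pass the test at -0.26 (adjusted p = 0.0107, over all probe sets of 1 gene), while 2 others of that gene were at 0.09 and 0.07, so the probe sets of Orc4 disagree. After centring, Orc2, Orc4 and Orc5 were called lower, at -0.27, -0.18 and -0.21 (adjusted p = 0.0147, 0.0478 and 0.0153).

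The licensing factors also had no call (limma, 1 of 3 at an unadjusted p under 0.05). Cdc6, the ATPase that helps ORC load the helicase, read 9.74, 9.56, 9.72 and 9.72 with cisplatin and 9.47, 9.46, 9.48 and 9.60 in the controls. Cisplatin replicate 4 was the low array of its group and control replicate 6 the high one of its group, and these 2 arrays alone made the groups overlap. The change was 0.18 ± 0.06 (adjusted p = 0.0641), and it passed without cisplatin replicate 4 or without control replicate 6 (adjusted p = 0.0340 and 0.0400). Cdc6 also passed without dim genes (adjusted p = 0.0399) and with an intensity trend and robust setting of limma (adjusted p = 0.0117). Cdt1, the MCM loading factor that is degraded in S phase, was at 0.06 ± 0.05, its 4 cisplatin values (11.81 to 11.86) just above the controls (11.73 to 11.81). Gmnn encodes geminin, the inhibitor of Cdt1, and was at -0.09 ± 0.05, opposite in sign to Cdt1 though neither passed the test (adjusted p = 0.472 for Cdt1 and 0.318 for Gmnn). After centring, Gmnn was called lower, at -0.22 (adjusted p = 0.0285).

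The MCM ring showed no call among its 6 genes on their brightest probe sets, in limma or at an unadjusted p under 0.05. Its mean level was 10.70, 10.75, 10.75 and 10.71 with cisplatin and 10.70, 10.75, 10.73 and 10.78 in the controls, a complete overlap. Mcm3 had the lowest p, with 9.79, 9.82, 9.84 and 9.76 with cisplatin against 9.84, 9.94, 9.89 and 9.95 in the controls. Its lowest control lay just below its highest cisplatin value, and the change was -0.10 ± 0.05 (adjusted p = 0.213), with a second probe set also at -0.10. Mcm7 was at 0.10 ± 0.05 (adjusted p = 0.239). A second bright probe set of Mcm7 was at 0.14 (limma, unadjusted p = 0.0293, adjusted p = 0.123 over all probe sets). Its cisplatin values, 10.52 to 10.66, all lay above its controls, 10.44 to 10.49. Mcm6 was at -0.08 ± 0.05 (adjusted p = 0.334), with no overlap between 11.24 to 11.31 with cisplatin and 11.33 to 11.42 in the controls. After centring, Mcm3 and Mcm6 were called lower, at -0.23 and -0.21 (adjusted p = 0.0128 and 0.0175). The log2 changes of Mcm2, Mcm4 and Mcm5 were 0.0036, 0.04 and -0.03. The widest interval in the ring, that of Mcm7, ran from -0.02 to 0.22.

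Cdc45 and Mcm10, which help turn the loaded ring into a moving helicase, had no call either, also at an unadjusted p under 0.05. Cdc45 read 7.73, 7.73, 7.71 and 7.59 with cisplatin and 7.69, 7.75, 7.79 and 7.83 in the controls. Only cisplatin replicate 6 lay below every control, and the change was -0.07 ± 0.06 (adjusted p = 0.441), or -0.20 with a call after centring (adjusted p = 0.0387). Mcm10 was at -0.0047 ± 0.05, the changes of its dimmer probe sets being -0.14 and -0.0036.

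GINS held the largest change of all members. Gins3, which encodes the subunit PSF3, read 6.96, 6.82, 6.85 and 7.02 with cisplatin and 6.60, 6.40, 6.32 and 6.31 in the controls. Every cisplatin array lay above every control, control replicate 3 being the highest of the controls. The log2 change was 0.50 ± 0.08 (1.42-fold, adjusted p = 0.00152), and a second probe set gave 0.41 (adjusted p = 0.00288 over all probe sets). The call held under all 19 alternatives, with a lowest change of 0.37 after centring. None of the partner genes passed the test. Gins2, which encodes PSF2, was at 0.15 ± 0.06 (adjusted p = 0.134) and passed only without control replicate 6, where it read 9.02 against 8.79 to 8.82 on the other controls (adjusted p = 0.0298). Gins4 (SLD5) was at 0.06 ± 0.06 and Gins1 (PSF1) at -0.04 ± 0.06. The change of Gins3 was 0.35 larger than that of Gins2, a difference described here after the values were seen and not tested.

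Polymerase alpha-primase, which makes the primers of both strands, had 3 of its 4 genes past the threshold, in opposite directions. Pola1, the catalytic polymerase subunit, read 9.02, 9.08, 8.90 and 8.86 with cisplatin and 9.41, 9.39, 9.54 and 9.27 in the controls. All cisplatin values lay below all controls, and the gene fell by 0.44 ± 0.07 on the log2 scale (1.36-fold, adjusted p = 0.00256). That call held under all 18 alternatives that kept the gene, with changes from -0.57 to -0.39. Prim2, the large primase subunit, read 8.50, 8.50, 8.45 and 8.38 with cisplatin and 8.77, 8.76, 8.81 and 8.54 in the controls. The groups did not overlap, though control replicate 6 lay far below the other controls, and the gene fell by 0.27 ± 0.07 on the log2 scale (adjusted p = 0.0215). A second bright probe set was at -0.26 (adjusted p = 0.0374 over all probe sets). Leaving out cisplatin replicate 5 or 6, or any control replicate except 6, ended the call of Prim2 (adjusted p up to 0.0625).

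The other 2 genes of that complex had positive log2 changes. Prim1, the catalytic primase subunit, read 10.21, 10.21, 10.19 and 10.29 with cisplatin and 10.001, 9.97, 9.92 and 10.11 in the controls. Its groups did not overlap, and it rose by 0.23 ± 0.06 (adjusted p = 0.0191), with 0.26 at a second probe set (adjusted p = 0.00955 over all probe sets). Leaving out control replicate 4 or 5, or cisplatin replicate 6, ended its call (adjusted p up to 0.0560), as did centring (0.10, adjusted p = 0.270). Pola2, the regulatory subunit, read 8.76, 8.78, 8.76 and 8.86 with cisplatin and 8.66, 8.51, 8.64 and 8.66 in the controls, again with no overlap, but its 0.17 ± 0.06 did not pass (adjusted p = 0.0585). The change of Prim1 exceeded that of its partner Prim2 by 0.49, and the change of Pola2 exceeded that of Pola1 by 0.61, both described after the values were seen.

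**Figure D2:**
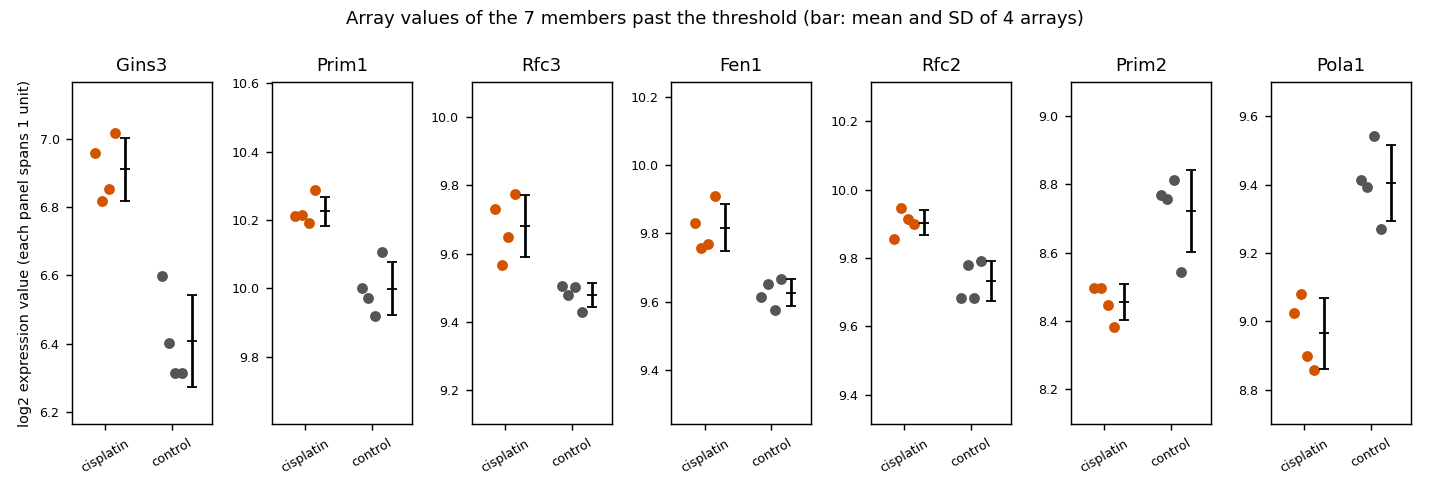
Log2 expression values on each array for the 7 members past the threshold, cisplatin (orange) left of control (grey), in order of change; points are replicates 3 to 6 from left to right, bars the mean and SD of 4 arrays, and each panel spans 1 log2 unit. In all 7 panels the groups do not overlap; Gins3 and Pola1 show the widest gaps.

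The elongating polymerases delta and epsilon had no call among 5 genes, in limma or at an unadjusted p under 0.05. Pold3, an accessory subunit of polymerase delta, had the lowest p. It read 7.56, 7.39, 7.496 and 7.52 with cisplatin and 7.69, 7.71, 7.60 and 7.42 in the controls. Control replicate 6 lay among the cisplatin values, and the change was -0.11 ± 0.07 (adjusted p = 0.372), or -0.24 with a call after centring (adjusted p = 0.0391). The catalytic subunit genes Pold1 and Pole were at 0.07 ± 0.07 and 0.06 ± 0.06, and Pold2 and Pole2 at 0.03 ± 0.05 and 0.0028 ± 0.06. Unlike Pola1, none of these 5 genes had an interval reaching beyond -0.28 or 0.22.

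Of the clamp and its loader, 2 of 6 genes were higher and none was lower, in limma or at an unadjusted p under 0.05. Pcna, the clamp, was at 0.04 ± 0.05, with 12.91 to 13.04 in cisplatin and 12.90 to 12.99 in the controls. Rfc3, a small loader subunit, read 9.73, 9.57, 9.65 and 9.77 with cisplatin and 9.51, 9.48, 9.502 and 9.43 in the controls, with no overlap. It rose by 0.20 ± 0.06 (adjusted p = 0.0379), and its second probe set by 0.27 (adjusted p = 0.0187 over all probe sets). Rfc2, another small subunit, read 9.86, 9.95, 9.91 and 9.90 with cisplatin and 9.68, 9.78, 9.68 and 9.79 in the controls. It rose by 0.17 ± 0.05 (adjusted p = 0.0468), the call nearest to the threshold. Adjusted over all probe sets, as for the second probe sets here, the same probe set did not pass (adjusted p = 0.0646), and its 2 dimmer probe sets were at 0.04 and 0.07 without a call. Rfc4 and Rfc5, the remaining small subunits, were at 0.02 ± 0.06 and -0.02 ± 0.05, and Rfc1, the large subunit, at -0.05 ± 0.05, or -0.18 with a call after centring (adjusted p = 0.0387).

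In Okazaki fragment joining, Fen1, the flap nuclease that trims displaced primers, read 9.83, 9.76, 9.77 and 9.91 with cisplatin and 9.61, 9.65, 9.58 and 9.67 in the controls. The groups did not overlap, and the gene rose by 0.19 ± 0.05 (adjusted p = 0.0357). Lig1, the ligase that seals the nick, was at -0.03 ± 0.05 (adjusted p = 0.718), with values from 9.95 to 9.98 with cisplatin and from 9.95 to 10.05 in the controls, which overlap. The calls of Fen1, Rfc2 and Rfc3 were all small and close to the threshold. That of Rfc2 was lost without any 1 array except control replicate 6 (highest adjusted p = 0.124), that of Rfc3 without any 1 array except cisplatin replicate 4 (highest 0.0951), and that of Fen1 without any 1 array except cisplatin replicate 4 or control replicate 6 (highest 0.0925). After centring, Rfc2, Rfc3 and Fen1 were at 0.04, 0.07 and 0.06 with no call (adjusted p = 0.614, 0.415 and 0.480).

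**Figure D3:**
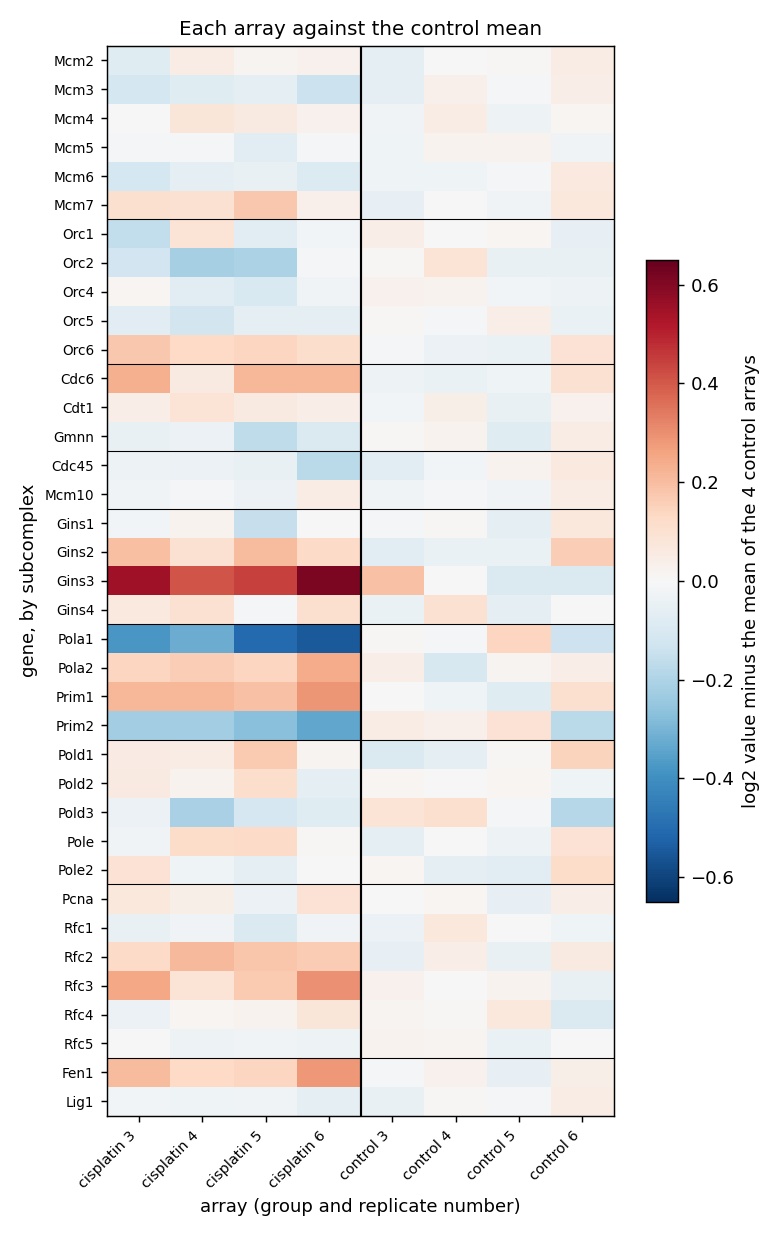
Log2 value of each of the 37 genes (rows, by subcomplex) on each array (columns, cisplatin left of control), minus the mean of the 4 control arrays. Gins3, Prim1, Fen1, Rfc3 and Rfc2 are above the control mean and Pola1 and Prim2 below it on all 4 cisplatin arrays. The same holds for some genes without a call, such as Orc6 and Pola2 above and Mcm3 and Mcm6 below, though the MCM rows stay pale.

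For 20 members the array carries more than 1 probe set of that gene alone, 28 further probe sets in all. Of these 28, 22 had the sign of the main probe set. For the called members all 7 further probe sets had the same sign, and 4 of them passed the test themselves, namely those of Gins3, Prim1, Prim2 and Rfc3. Pola1 and Fen1 are read by 1 probe set each. Mcm5 had a dim second probe set, at 5.33 on average, with a log2 change of 0.27 (adjusted p = 0.131), opposite in sign to its bright one at -0.03.

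Gene length was not used to choose the members, and their changes followed it. Pola1 lies on chromosome X and spans 328 kb, Prim2 lies on chromosome 1 and spans 216 kb (RefSeq, GRCm38.p6), and the remaining 35 members span 3.90 to 76.8 kb. The median log2 change was 0.10 over the 9 members of up to 10 kb, 0.02 over the 17 of 10 to 30 kb and -0.05 over the 9 of 30 to 100 kb, and 8, 11 and 1 of them were positive. Pola1 and Prim2, the only members over 100 kb, had a median of -0.35. Over all genes the same length classes had medians of 0.04, 0.04, -0.01 and -0.09. Across the 37 members the log2 change and the length correlated at a Spearman rho of -0.65, and at -0.59 over the 35 without the 2 longest. Without the shortest class rho was -0.61 (28 genes), and without the 30 to 100 kb class -0.47 (28 genes). These are descriptions across genes read on the same 8 arrays, and genes are not independent replicates. Over all 16935 genes with a length rho was -0.25. Of the 2124 genes over 100 kb, 26.9% were called lower, against 4.96% of the 14811 shorter ones, so a lower call was more common among long genes and is not confined to the 2 members. Their median of -0.35 lay below the -0.09 of all genes over 100 kb, a difference that was not tested. The medians, shares and rho over all genes were not limited to genes as bright as the members. The tested genes include 5359 that were dim in both groups, while no member had a group mean below 6.41. Whether the trend with length differs between the members and equally bright genes was not tested. Of the 35 shorter members none was called lower by limma on the deposited scale, nor at an unadjusted p under 0.05, but 9 were after centring.

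**Figure D4:**
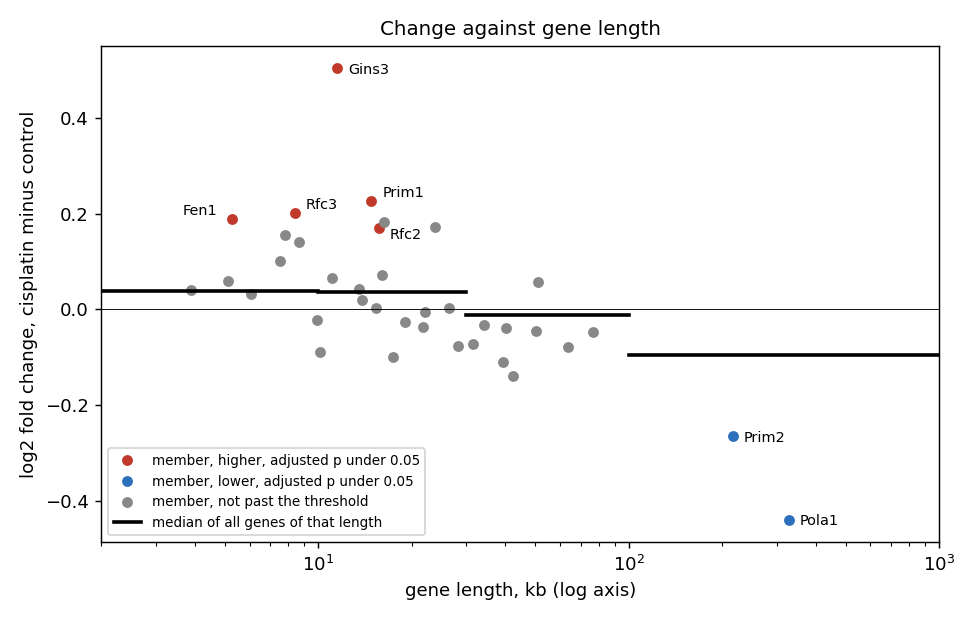
Log2 fold change (cisplatin minus control) of the 37 members against gene length in kb on a log axis; black bars give the median of all measured genes in the length classes up to 10, 10 to 30, 30 to 100 and over 100 kb. Called members of up to 16 kb lie above 0, and Prim2 (216 kb) and Pola1 (328 kb) lie lowest.

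Other genes of the pathway, from a list of 41 of which 36 were measured, had 3 calls higher and 7 lower, with a median log2 change of 0.05. That is a share of 27.8%, where 19.3% of all genes and 27.9% of genes at least as bright as the dimmest member passed. Dbf4, the activator of the origin-firing kinase Cdc7, was at 10.12 ± 0.06 with cisplatin and 10.56 ± 0.03 in the controls (SD, n = 4 each) and fell by 0.43 ± 0.05 on the log2 scale (adjusted p = 0.000346). Top1, the topoisomerase that relieves torsion ahead of the fork, fell by 0.48 ± 0.05 on that scale (adjusted p = 0.000192). Mcm9, which encodes an MCM-like protein of recombination repair, was at -0.54 ± 0.10 (adjusted p = 0.00329), and Fbxo5, which encodes an inhibitor of the anaphase-promoting complex, at -0.24 ± 0.05 (adjusted p = 0.00540). Mtbp, a partner in origin firing, Top2a and the MCM-binding Mcmbp made up the rest of the lower genes, at -0.30, -0.20 and -0.19. The higher genes were Dna2, a nuclease of Okazaki flaps, at 0.29 ± 0.06 (adjusted p = 0.00717), Pole3, a small subunit of polymerase epsilon, at 0.22 ± 0.06 (adjusted p = 0.0235), and Rpa2, a subunit of the single-strand binding protein, at 0.19 ± 0.05 (adjusted p = 0.0241).

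Related lists are set beside the members by counts, medians and, for mitosis, the list mean. In limma 21.4% of the 14 measured genes of deoxynucleotide supply passed. The share was 19.3% over all genes and 27.9% over genes at least as bright as the dimmest member. In the list 3 were higher and none lower (none also at an unadjusted p under 0.05), with a median of 0.13. They were Rrm2b, the p53-induced reductase subunit, at 0.53 ± 0.08, Rrm2, the S phase subunit, at 0.26 ± 0.06, and Dck, the deoxycytidine kinase, at 0.26 ± 0.06, while Dtymk, the thymidylate kinase, was at 0.14 ± 0.05 (adjusted p = 0.0933). Of 19 measured genes of G2 and mitosis 14 (73.7%) were lower and none higher in limma, where 7.69% of all genes were lower. Their median was -0.21. At an unadjusted p under 0.05, Aurkb, a mitotic kinase named after its value was seen, was higher at 0.14. The lowest p-values of the list in limma were those of the mitotic kinases Plk1 and Aurka and the spindle genes Kif11 and Tpx2, with log2 changes of -0.77 to -0.42. The mean of the mitosis list was 9.68 ± 0.02 with cisplatin and 9.95 ± 0.02 in the controls, a log2 difference of -0.27. The mean of all members differed by 0.02. Among the subcomplexes the difference ran from -0.08 (polymerase alpha-primase) to 0.17 (GINS), and the MCM genes, at -0.0092, lay nearest 0. The difference between these lists was not tested.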

How the data were processed

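Total RNA of 8 samples was amplified with a 3′ labelling kit and hybridised to 1 array each, per the labels' protocols. The authors deposited log2 expression values, 1 column per array, and the submitters' processing notes name RMA and limma without versions. RMA normalizes between arrays, which hides any change in RNA content per cell. Of 45141 probe sets, 28898 have 1 gene in the platform annotation; those with several (551), none listed (15588) or controls (104) were not tested. Symbols and lengths came through Entrez identifiers from RefSeq (GRCm38.p6), which held 16937 of 17098 genes.

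The groups were tested with limma 3.58.1 in R 4.3.3 (lmFit, eBayes, group only; 95% intervals from the same fit), with Benjamini-Hochberg adjustment over the 17098 genes, a threshold of 0.05 and no filter on dim genes; the fit was tested on simulated data. Arrays have no depth; precision is set by the 4 arrays a group, and the median SE of a member's log2 change was 0.05. Background was the mean of nonspecific probes of 24 G or C, at 3.10. Array values are printed for every called member and the member with the lowest p of each subcomplex without a call; of the other lists, the 4 genes with the lowest p are named, and further called genes where 5 or fewer, or those left of a count, were named after their values were seen. The members and lists were chosen with earlier results of these data known. Alternatives covered probe set choice, dim and long genes, scaling, test settings, threshold, a replicate term and each array left out. Figures used matplotlib 3.10.9 in Python 3.11.15.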

Additional observations from a re-analysis of the deposited data

Results flagged for a closer look

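In 7 of 74 groups of 4 arrays (37 members in 2 treatments), 1 array stood apart from the other 3 by more than the 95% critical value of Dixon's test. Chance alone flags about 1 in 20 groups. On the cisplatin arrays, Mcm5 read 10.25 on replicate 5 against 10.30 on each of the others, Orc5 9.81 on replicate 4 against 9.86 to 9.87, Cdc6 9.56 on replicate 4 against 9.72 to 9.74, Cdc45 7.59 on replicate 6 against 7.71 to 7.73, and Pola2 8.86 on replicate 6 against 8.76 to 8.78. On the control arrays, replicate 6 was the high array both for Cdc6, at 9.60 against 9.46 to 9.48, and for Gins2, at 9.02 against 8.79 to 8.82.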

How the results depend on the processing

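Of the 7 called members, Gins3 and Pola1 kept their call under every alternative that kept the gene, and the other 5 lost it under at least 5. Members called higher, 5 as reported, numbered 3 with the most variable probe set, 1 after centring, 8 with an intensity trend and robust setting, 1 at a threshold of 0.01 and 3 with the replicate number as a block, which ended the calls of Rfc2 (adjusted p = 0.0571) and Rfc3 (0.0627); with each array left out they numbered 1 to 7. Same-numbered arrays of the groups correlated at 0.20, 0.18, 0.20 and 0.06 in their deviations from group means. Each cisplatin array correlated best with the control of its own number. Seen from the controls, replicate 6 correlated best with cisplatin replicate 3 (0.11). The numbers were not taken as pairs in the main fit, and whether they mark a shared batch was not tested. Members called lower, 2 as reported, numbered 11 after centring, 1 at 0.01 and 1 to 2 with an array left out. Without genes over 100 kb they numbered 0, since Pola1 and Prim2 are then not tested. Over all genes, 1087 were higher and 3925 lower after centring, 1113 and 742 at 0.01, and 731 lower without genes over 100 kb. With the mean of the probe sets Rfc2 was at 0.09 (adjusted p = 0.222).

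Changes near 0 turned sign. After centring, Mcm2 was at -0.13, Mcm4 at -0.088, Mcm7 at -0.029, Cdt1 at -0.072, Gins4 at -0.066, Pold1 at -0.059, Pold2 at -0.10, Pole at -0.073, Pole2 at -0.13, Pcna at -0.089 and Rfc4 at -0.11. With the most variable probe set, Mcm5 was at 0.27, Orc4 at 0.066, Cdt1 at -0.0099 and Rfc4 at -0.0101. With the mean of the probe sets, Mcm2 was at -0.011 and Mcm5 at 0.12. With quantile normalization again, Mcm10 was at 0.00033 and Pole2 at -0.0045. With an array left out, Mcm2 ranged from -0.015 to 0.030, Mcm10 from -0.023 to 0.012, Gins1 from -0.058 to 0.00051, Pole2 from -0.028 to 0.043 and Rfc4 from -0.012 to 0.043. None of these was called under those settings. Besides the shift that centring adds, the causes were not tested. Members are well above array background, and centring moved the count of members called lower more than leaving out any 1 array did.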
